A study of Mus musculus with 12 samples.

Results

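Expression of 10 hepatic carboxylesterase genes was examined in mouse liver during fast-food diet (FFD) feeding, with and without hepatocyte deletion of PPARγ. The genes were chosen by name: Ces1b, Ces1c, Ces1d, Ces1e, Ces1f, Ces1g, Ces2a, Ces2c, Ces2e and Ces3a. They are 10 of the 54532 genes in each count file and 10 of the 20 carboxylesterase genes named there, and all 10 had enough counts to be tested in every comparison. Carboxylesterases are serine hydrolases that split ester bonds in lipids, drugs and other foreign compounds. In liver, most are made by hepatocytes, and many are held in the lumen of the endoplasmic reticulum (ER), where lipid droplets are turned over and very-low-density lipoprotein (VLDL) is assembled. Others leave the cell and circulate in plasma.

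The 12 bulk liver RNA-seq libraries formed 4 groups of 3. Male PPARγ flox/flox mice received an adeno-associated virus at 8 weeks of age, carrying Cre (AAV8.TBG.PI.Cre.rBG, the group labelled PPARγ-KO) or, in littermates, green fluorescent protein (AAV8.TBG.PI.eGFP.WPRE.bGH, here wild-type, WT). The TBG promoter is active in hepatocytes, so the other liver cells of a PPARγ-KO mouse keep the gene, and the wild-type mice carry the same floxed alleles. Both vectors are AAV8 with the TBG promoter, and by their names they differ in the transgene, in the end of the cassette (rBG or bGH) and in the WPRE element, which the control vector alone has. Both groups then ate the FFD (21% fat by weight supplying 42% of calories, 0.2% cholesterol and 34% sucrose), with glucose and fructose in the drinking water, for 2 months (2M) or 5 months (5M), and no chow-fed library was part of the set. The labels number the libraries of a group as repeats without saying that each is a separate animal. The p-values therefore weigh group differences against the spread between libraries, which may not be the spread between animals.

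Libraries held 16367775 to 27452284 counts. The gene-level count of the targeted gene did not fall in the libraries labelled PPARγ-KO. Pparg counts were 711, 804 and 742 in wild-type and 974, 1166 and 1398 in labelled PPARγ-KO livers at 2M, and 623, 710 and 710 against 1834, 1812 and 1189 at 5M. Its log2 fold change was 0.52 at 2M (SE 0.107, edgeR adjusted p = 0.0309) and 1.15 at 5M (SE 0.0847, adjusted p = 2.57e-06), and a count per gene does not show whether the floxed exons were missing. Cfd (adipsin), a gene known to be driven by PPARγ and named after its values were seen, separated the labels. It had no count in any of the 6 labelled PPARγ-KO libraries, 70 to 599 counts in wild-type at 2M and 115 to 120 at 5M. Its edgeR adjusted p was 0.307 at 2M, which did not pass, and 1.08e-06 at 5M. Protein was not part of the files. Knockout comparisons below therefore contrast libraries as labelled. The sum of 12 hepatocyte markers was higher in every labelled PPARγ-KO library than in any wild-type library of the same time: 63656 to 80081 against 83219 to 97320 normalized CPM (counts scaled to library size) at 2M, and 66690 to 69740 against 84180 to 96067 at 5M. Alb alone made up 50.7% to 65.5% of this sum and held most of its 5M difference. At 5M, 7 of the 12 markers had positive and 5 negative log2 fold changes.

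The 10 genes lie in a pair of clusters on chromosome 8 (mm10). The first, chr8:93020214-93379725 on the minus strand, spans 359.5 kb and holds 8 Ces1 genes, 6 of them listed here. The second, chr8:104734003-105150109 on the plus strand, spans 416.1 kb and holds 11 genes of the Ces2, Ces3 and Ces4 subfamilies, 4 of them listed. Between pairs of Ces1 members, 73.1% to 90.9% of aligned coding bases were identical. Ces1b and Ces1c were the closest pair of members at 90.9%. The 3 Ces2 members matched each other at 83.0% to 84.0%, and members of different subfamilies at 61.3% to 64.5%.

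The close similarity bears on how reads can be assigned. Of all 100-base windows of its transcript, Ces1b shared 1.29% exactly with another gene and Ces1c 1.39%, in each case with the other of the pair. Ces1c averaged 1486 normalized CPM over the 12 libraries and Ces1b 38.6. Reads of Ces1c given to Ces1b would therefore weigh more than the reverse. Ces2c shared 16%, mostly with the pseudogene Ces2d-ps, Ces2a 10.7% with Gm7208, and Ces3a 9.09% with Ces3b, while the other 5 members shared none. How the counting treated such reads is not given in the sources used here, so the values of those 5 genes are less certain. Ces1d also overlaps Gm45909 on the same strand over 1031 bases and Ces3a overlaps Gm45724 on the opposite strand over 420 bases. Those neighbours held 1134 and 335 counts over the 12 libraries, against 121928 for Ces1d and 271993 for Ces3a.

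The last codons of the reading frame were searched for a known ER-retention pattern. Proteins ending in histidine, any residue, glutamate and leucine are returned to the ER by the KDEL receptors. The last 24 coding bases of each member (GENCODE vM21 transcripts) follow, with the 4 codons before the stop codon in capitals.
Ces1b: actgagcacAGAGAACACAAAtga
Ces1c: actgaacacACAGAACACAAAtga
Ces1d: cacagggaaCATGTTGAGCTCtga
Ces1e: ccgacagaaCACACTGAGCTGtga
Ces1f: cagccatacCACAATGAGCTGtga
Ces1g: catagggaaCATGTTGAACTGtga
Ces2a: caggacaagCATGCAGAGCTGtag
Ces2c: caggacaagCACAGGGAGCTTtag
Ces2e: caggagaggCACAAAGAGTTGtag
Ces3a: aggaaagttCCAGAGGAGCTCtga
The histidine, any, glutamate, leucine pattern was present in 7 of the 10 members and absent from Ces1b, Ces1c and Ces3a. Ces3a still ends in a glutamate and a leucine codon. Other forms of the signal were not searched, so a member without this pattern is not shown to lack one. Ces1c encodes the main carboxylesterase of mouse plasma.

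Promoter sequence was compared because Ces1b and Ces1c showed similar knockout differences below. RefSeq windows from 250 bases before to 50 bases after the start (GRCm38.p6) were matched for 7 of the 10 members, all but Ces1d, Ces1f and Ces3a. In a global alignment, 85.7% of the 300 bases of Ces1b and Ces1c were identical, and the other 20 pairs reached 47.0% to 67.0%. Ces1b has 2 listed starts, and the one most like Ces1c was used for these values and is shown, so the 85.7% follows from that choice. Capitals mark the longest run of identical bases, 58 in length, in chr8:93079891-93080190 (Ces1b) and chr8:93131234-93131533 (Ces1c), both on the minus strand.
Ces1b: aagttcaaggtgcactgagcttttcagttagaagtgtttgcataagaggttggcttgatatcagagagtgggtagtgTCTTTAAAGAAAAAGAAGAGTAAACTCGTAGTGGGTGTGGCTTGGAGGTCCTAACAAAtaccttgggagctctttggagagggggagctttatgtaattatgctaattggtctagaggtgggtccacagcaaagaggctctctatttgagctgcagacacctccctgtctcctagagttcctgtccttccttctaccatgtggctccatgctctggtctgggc
Ces1c: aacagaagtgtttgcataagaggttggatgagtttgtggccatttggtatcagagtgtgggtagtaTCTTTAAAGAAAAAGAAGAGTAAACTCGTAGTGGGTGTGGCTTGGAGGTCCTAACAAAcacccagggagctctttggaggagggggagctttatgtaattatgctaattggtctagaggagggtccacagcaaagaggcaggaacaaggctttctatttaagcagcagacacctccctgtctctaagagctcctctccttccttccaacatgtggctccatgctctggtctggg
The nuclear receptor half-site AGGTCA repeated in the same direction with any 1 base between, the DR1 pattern bound by PPAR and HNF4 receptors, was found in none of the 7 members and in 0.0396% of 32851 promoters of this length. The half-site AGGTCA alone was found in 1 of 7, Ces2a, and in 16.3% of all promoters. The HNF4-type letters CAAAGTCCA were in none of the 7, against 0.475% of all promoters. Both strands were searched, and each DR1 match also holds the half-site. With patterns this rare, none in 7 was the likely outcome for DR1 and CAAAGTCCA. The search therefore cannot show whether PPAR or HNF4 receptors bind near these genes. These counts describe letters in these windows only.

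Together the 10 genes made up 0.404% to 0.508% of the counts of a library. Per kilobase of gene length, Ces1c was the most abundant, at a mean of 640 normalized CPM per kb over the 12 libraries (rank 65 of all genes), followed by Ces3a at 445 (rank 98) and Ces1d at 221. Ces1c and Ces3a, both without the histidine, any, glutamate, leucine pattern, supplied 51.3% to 63.7% of the summed CPM per kb of the members in each library. Next came Ces1f at 110, Ces1g at 106, Ces2e at 105, Ces2a at 80.6 and Ces1e at 75.1 CPM per kb. Ces1b and Ces2c were the least abundant, both at 19.7.

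Some neighbours in this order could not be told apart at the lengths used. The length used for Ces1f was 3285 bases, though its transcript searched above has 1926. For Ces1g both lengths were 2388 bases, so the order of these genes depends on the length chosen. Without division by length, Ces1f averaged 360 normalized CPM and Ces1g 254. Ces1f exceeded Ces1g in 8 of 12 libraries, Ces1g exceeded Ces2e in 5, Ces2e exceeded Ces2a in 9, Ces2a exceeded Ces1e in 8 and Ces1b exceeded Ces2c in 6. Ces1c lay above Ces3a, Ces3a above Ces1d, Ces1d above Ces1f and Ces1e above Ces1b in 12 of 12. The order of the first 3 genes was thus the same in each library, whatever its genotype or time on diet.

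**Figure D1:**
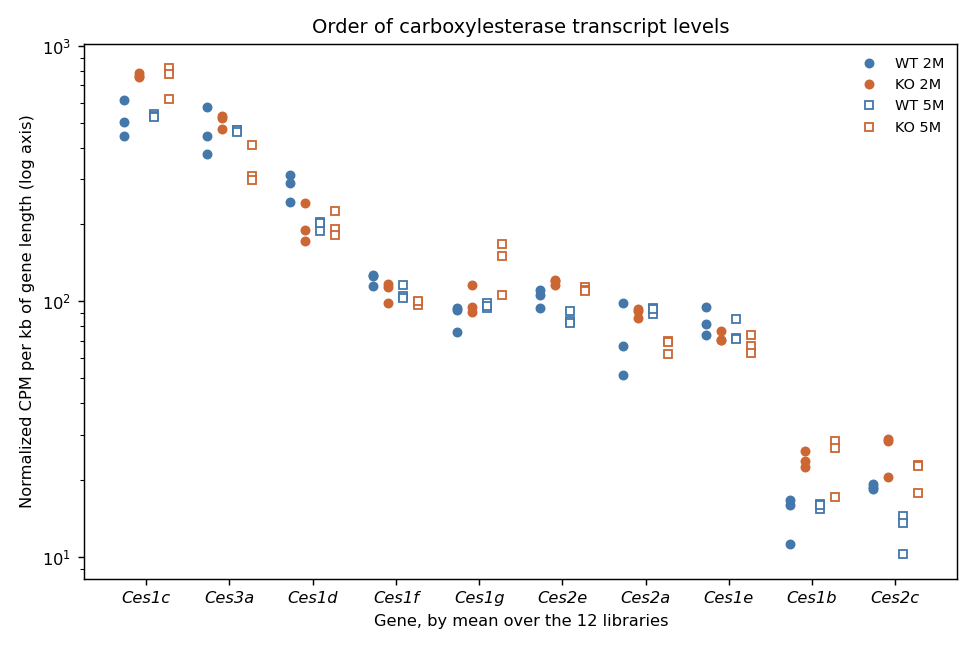
Level of each carboxylesterase in each of the 12 libraries, as normalized CPM per kb of gene length on a log axis, with genes ordered by their mean. Filled circles are 2M and open squares 5M, blue is wild-type and orange labelled PPARγ-KO. Ces1c, Ces3a and Ces1d lie apart at the top and Ces1b and Ces2c at the bottom, and the 5 genes between them overlap.

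The first question was how carboxylesterase mRNA differed between labelled PPARγ-KO and wild-type livers after 2M of FFD. Ces1b and Ces1c were higher in labelled PPARγ-KO livers and no member passed the test as lower, so 2 of 10 were called, against 3.56% of all 14573 genes tested (1.78% higher and 1.78% lower). Groups, scaled within the comparison, did not overlap for 4 of 10 members, against 24.3% of all genes. The median log2 fold change of the 10 was 0.20, beside -0.0048 over all genes tested.

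Ces1c was at 1425, 1033 and 1171 normalized CPM in wild-type and at 1754, 1772 and 1827 in labelled PPARγ-KO libraries at 2M. All 3 of the latter were above the highest wild-type library, and the log2 fold change was 0.56 (SE 0.118, adjusted p = 0.0315). Its near-copy Ces1b was at 32.8, 22.1 and 31.4 against 44.3, 51.2 and 46.5 normalized CPM, again without overlap, with a log2 fold change of 0.72 (SE 0.141, adjusted p = 0.0309). Neither call held each time a library was left out. Ces1b lost it without wild-type replicate 3 or any 1 labelled PPARγ-KO replicate (highest adjusted p = 0.0937), and Ces1c lost it without wild-type replicate 2 or 3 or any 1 labelled PPARγ-KO replicate (highest adjusted p = 0.128).

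Ces1d, the triacylglycerol hydrolase that mobilizes stored lipid for VLDL, was the member with the lowest fold change at 2M. It was at 580.3, 741.3 and 689.5 normalized CPM in wild-type and at 449, 409 and 577 in labelled PPARγ-KO libraries. The highest labelled PPARγ-KO library lay just under the lowest wild-type library on this scale, and the groups overlapped once the 2M libraries were scaled on their own. The log2 fold change was -0.49 (SE 0.139, adjusted p = 0.0949), which did not pass.

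Ces2c, a hydrolase of diacylglycerol and triacylglycerol, was at 42.3, 44.4 and 43.3 normalized CPM in wild-type and at 66.3, 65.5 and 47.3 in labelled PPARγ-KO libraries at 2M. The groups did not overlap, though the third labelled PPARγ-KO library lay close to wild-type, and the log2 fold change of 0.46 (SE 0.123) missed the threshold at an adjusted p of 0.0792. With the replicate number as a block (same-numbered libraries deviated weakly together at 2M), Ces2c was called at 0.45 (adjusted p = 0.0440). Ces2e was at 255.0, 285.9 and 299.6 against 326.2, 314.2 and 323.5 normalized CPM, without overlap, and its log2 fold change of 0.20 (SE 0.0813, adjusted p = 0.225) did not pass.

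Ces2a and Ces3a varied most among wild-type libraries at 2M. Ces2a was at 233, 121 and 158 normalized CPM there and at 216.3, 203.5 and 219.8 in labelled PPARγ-KO livers. Its log2 fold change was 0.32 (SE 0.233, adjusted p = 0.534). Ces3a was at 1519, 995 and 1168 against 1394, 1244 and 1376, and its log2 fold change was 0.12 (SE 0.144, adjusted p = 0.70). For both genes, wild-type replicate 1 was the highest and replicate 2 the lowest of the 6 libraries. Without wild-type replicate 1, both genes were called higher, Ces2a at 0.61 (adjusted p = 0.00591) and Ces3a at 0.31 (adjusted p = 0.0439), 4 members were called in all, and the share of all genes called was 10.6%.

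The other 3 members overlapped between genotypes and did not pass at 2M. Ces1e, known as egasyn for its binding of β-glucuronidase in the ER, had a log2 fold change of -0.20 (SE 0.0966, adjusted p = 0.294). Ces1f had -0.16 (SE 0.0896, adjusted p = 0.393), and Ces1g, a hydrolase linked to hepatic lipid handling, 0.20 (SE 0.114, adjusted p = 0.395). Their 95% intervals ran from -0.42 to 0.012, from -0.36 to 0.043 and from -0.056 to 0.45.

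**Figure D2:**
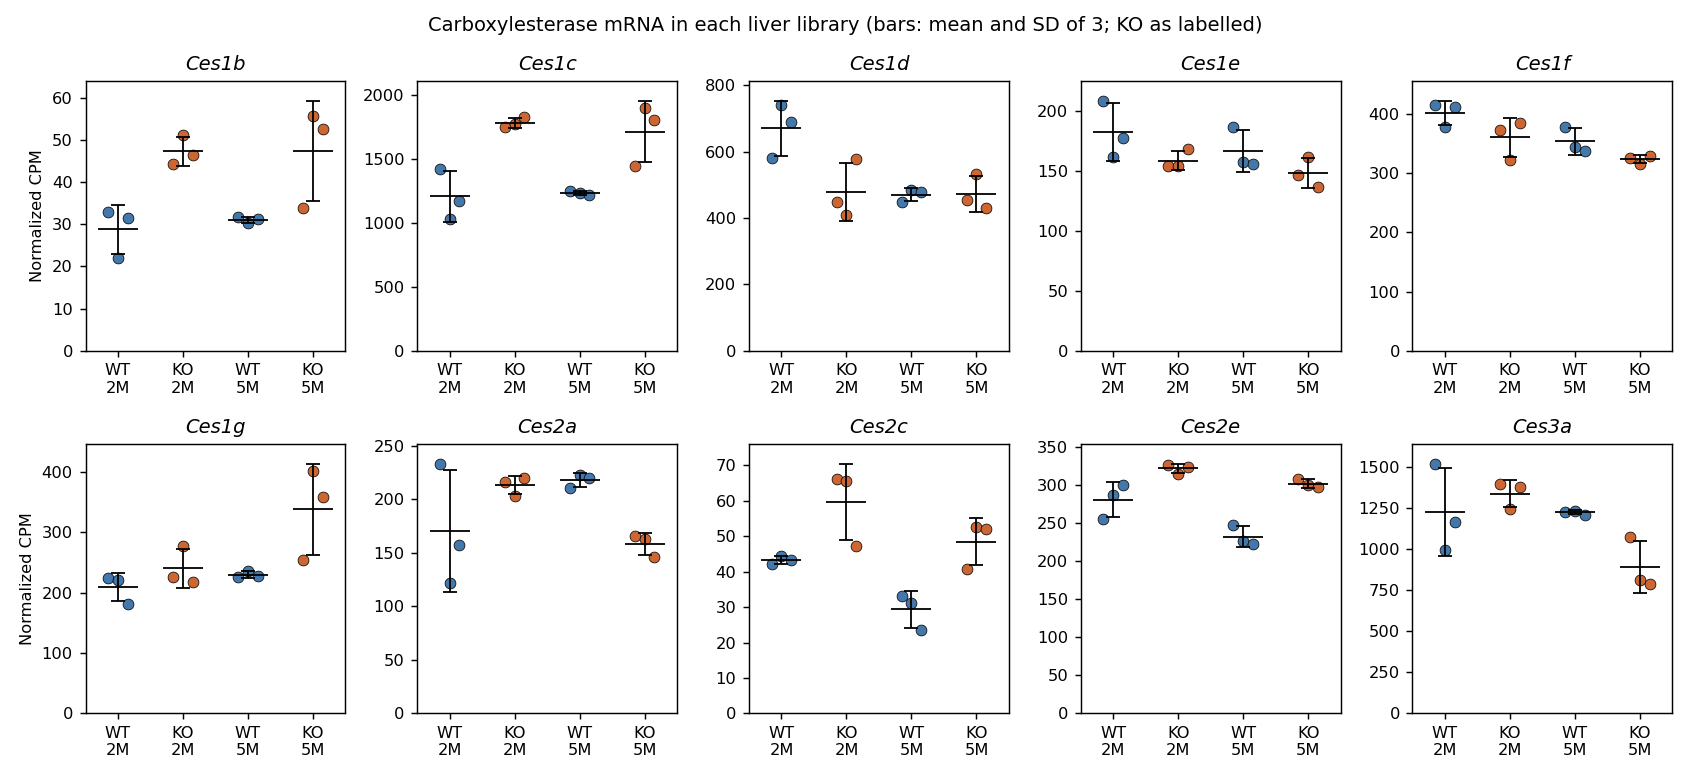
Normalized CPM of each gene in each library (points), with the mean and SD of the 3 libraries of each group (bars). Axes start at 0 and differ between genes. Ces1b and Ces1c sit higher in labelled PPARγ-KO than in wild-type libraries at both times, and Ces2a and Ces3a have their widest spread in wild-type livers at 2M.

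After 5M of FFD, 5 of 10 members differed between genotypes, against 18.4% of all 14138 genes tested (8.9% higher and 9.51% lower). Ces1c, Ces2c and Ces2e were higher in labelled PPARγ-KO livers, and Ces2a and Ces3a lower. Groups did not overlap for 8 of 10, against 34.5% of all genes, and the median log2 fold change was 0.20, beside -0.0058 over all genes tested. Scaling by library size alone gave 3 higher and 4 lower in place of 3 and 2, as Ces1e and Ces1f then passed as lower. The calls over all genes shifted the same way, to 6.29% higher and 13.4% lower, and the median of all genes to -0.073.

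Among the higher genes, Ces1c was at 1253, 1237 and 1219 normalized CPM in wild-type and at 1444, 1898 and 1803 in labelled PPARγ-KO libraries. The log2 fold change was 0.48 (SE 0.0969, adjusted p = 0.00389), and the call held in all 13 alternatives run, with a highest adjusted p of 0.0244. Ces2c was at 33.2, 31.3 and 23.5 against 40.7, 52.7 and 52.1, a log2 fold change of 0.74 (SE 0.148, adjusted p = 0.0112) that also held in 13 of 13. Ces2e was at 247, 226 and 222 against 307.7, 300.1 and 296.6, with a log2 fold change of 0.39 (SE 0.0647, adjusted p = 0.00106).

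Labelled PPARγ-KO replicate 1 was the lowest of its group for Ces1c and Ces2c and lay closest to wild-type. The same library was the lowest for Ces1b and Ces1g, which did not pass. Ces1b was at 31.7, 30.2 and 31.3 in wild-type against 33.8, 55.8 and 52.6 normalized CPM, and its log2 fold change of 0.62 (SE 0.193) had an adjusted p of 0.0825. Ces1g was at 225, 236 and 228 against 254, 401 and 358, with 0.57 (SE 0.158) at an adjusted p of 0.0505, and it passed in 7 of 13 alternatives, among them the fit without that library (adjusted p = 3.88e-05). Without it Ces1b passed too, at 0.82 (adjusted p = 1.35e-05).

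Among the lower genes, Ces2a was at 210.8, 222.6 and 220.2 normalized CPM in wild-type and at 166, 163 and 146 in labelled PPARγ-KO libraries. All labelled PPARγ-KO libraries lay well below wild-type, and the log2 fold change was -0.45 (SE 0.0671, adjusted p = 0.000512). In the fit of all 12 libraries, Ces2a did not pass (adjusted p = 0.136). Ces3a was at 1226.7, 1234.4 and 1209.5 against 1071.6, 809.6 and 786.9, again without overlap, at -0.45 (SE 0.106, adjusted p = 0.0110). Its call was lost without wild-type replicate 1 (adjusted p = 0.0883) or labelled PPARγ-KO replicate 3 (0.0600).

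Ces1d showed no detectable difference at 5M. It was at 447.0, 484.8 and 479.5 normalized CPM in wild-type and at 455, 533 and 431 in labelled PPARγ-KO libraries, a log2 fold change of 0.018 with a 95% interval from -0.16 to 0.20. Ces1e had -0.16 (SE 0.0833, adjusted p = 0.223). Ces1f, at 379, 345 and 338 against 326.1, 316.6 and 330.1, did not overlap but its log2 fold change of -0.12 (SE 0.0667, adjusted p = 0.272) did not pass.

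Members were also summed by subfamily. At 5M the Ces2 sum holds called members of opposite direction, and at 2M all 3 Ces2 members had positive log2 fold changes. The 6 Ces1 members summed to 2703 ± 168 normalized CPM (SD, n = 3) in wild-type and 3069.9 ± 131 in labelled PPARγ-KO livers at 2M, and to 2488 ± 36.0 against 3046 ± 358 at 5M. The 3 Ces2 members summed to 494 ± 39.8 against 594 ± 13.2 at 2M and to 479 ± 12.8 against 508 ± 11.6 at 5M. All 10 summed to 4424 ± 473 against 5002 ± 187 at 2M, with overlap, and to 4191 ± 58.6 against 4443 ± 228 at 5M, without. These sums were not tested.

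The ratio of the mean hepatocyte marker sums, labelled PPARγ-KO over wild-type, was 1.26 at 2M and 1.3 at 5M, beside folds of 1.47 and 1.40 for Ces1c. Alb alone made up 50.7% to 65.5% of that sum, and at 5M its mean was 36944 normalized CPM in wild-type and 57053 in labelled PPARγ-KO livers. The mean of the whole sum at 5M was 68645 and 89540, so Alb held most of that difference. Of the 12 markers, 10 had positive and 2 negative log2 fold changes at 2M, and 7 and 5 at 5M. As higher, 2 passed at 2M and 3 at 5M, and none passed as lower. In bulk tissue, fewer cells of a type and less RNA per cell cannot be told apart, and the part of cell makeup in the carboxylesterase values was not tested. Ces2a and Ces3a were lower at 5M in libraries where this sum, led by Alb, was higher, and the cause was not tested.

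**Figure D3:**
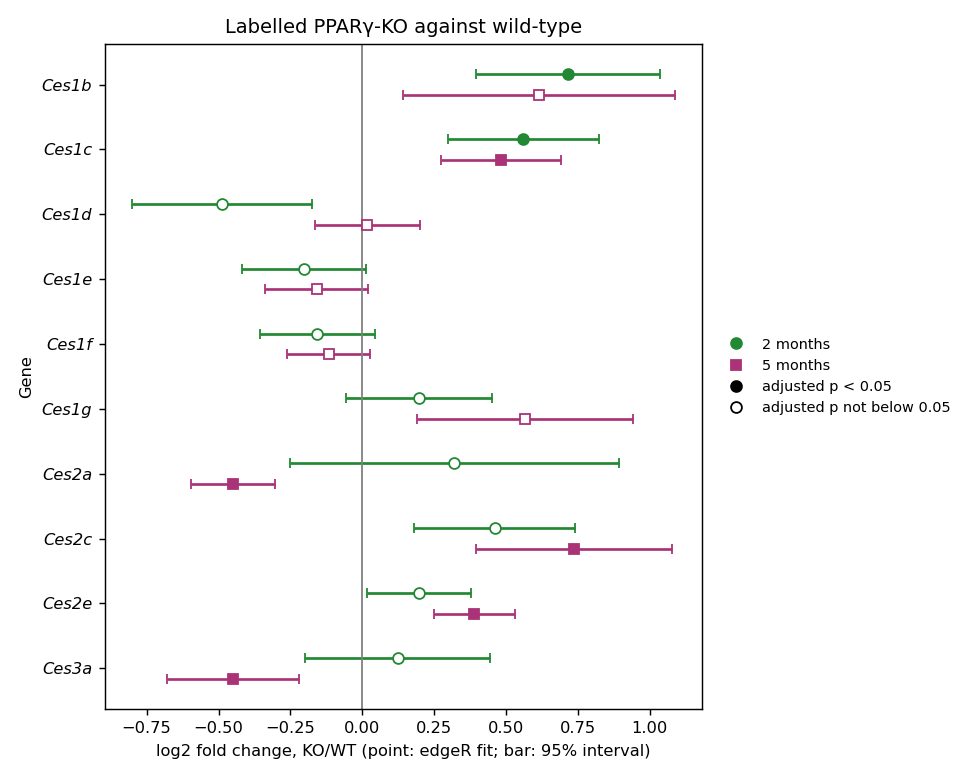
Log2 fold change of each gene between labelled PPARγ-KO and wild-type libraries at 2M (green circles) and 5M (purple squares), with 95% intervals from edgeR. Filled symbols passed an adjusted p under 0.05. Ces1c is filled at both times, Ces1b at 2M alone, and Ces2a and Ces3a lie right of 0 at 2M and left of it at 5M.

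Over time on FFD, wild-type livers had lower Ces1d, Ces2c and Ces2e at 5M than at 2M, and no member was called higher, so 3 of 10 passed where 46.4% of all 14491 genes did (23.8% higher and 22.7% lower). Ces1d fell from 670.4 ± 82.2 to 470.4 ± 20.5 normalized CPM (log2 fold change -0.51, SE 0.103, adjusted p = 0.00214). Ces2c fell from 43.3 ± 1.04 to 29.3 ± 5.16 (-0.56, SE 0.116, adjusted p = 0.00263). Ces2e fell from 280.2 ± 22.8 to 232 ± 13.6 (-0.28, SE 0.0860, adjusted p = 0.0223), a call lost without 2M replicate 2 or 3 or 5M replicate 2 or 3 (adjusted p up to 0.110). Ces2a passed as higher when 2M replicate 1 was left out, at 0.65 (adjusted p = 0.000341).

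In labelled PPARγ-KO livers, other members passed. Ces2a and Ces3a were lower at 5M, 2 of 10 where 44.9% of all 14478 genes passed (22.7% higher and 22.2% lower). Ces2a fell from 213 ± 8.60 to 158 ± 10.5 normalized CPM (-0.43, SE 0.0641, adjusted p = 0.000280), without overlap, though the fit of all 12 libraries gave an adjusted p of 0.0840. Ces3a fell from 1338 ± 81.7 to 889 ± 158 (-0.59, SE 0.116, adjusted p = 0.00361). Ces1g was at 240.0 ± 31.8 and 338 ± 75.6 and did not pass (0.49, adjusted p = 0.100), but passed without 5M replicate 1 (0.67, adjusted p = 0.00158).

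Both members that passed at 2M in the knockout comparison had no detectable change over time. Ces1c was at 1209.7 ± 199 and 1236 ± 17.2 normalized CPM in wild-type livers at 2M and 5M, and at 1784 ± 38.0 and 1715 ± 240 in labelled PPARγ-KO livers. The log2 change was 0.030 (95% interval -0.23 to 0.29) and -0.060 (-0.27 to 0.15). Ces1b was at 28.8 ± 5.81 and 31.1 ± 0.750 in wild-type and at 47.3 ± 3.52 and 47.4 ± 11.9 in labelled PPARγ-KO livers, with log2 changes of 0.11 (-0.19 to 0.41) and -0.0021 (-0.49 to 0.49). Whether the 2M and 5M livers were processed together is not stated, so time on diet, age and preparation cannot be told apart.

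**Figure D4:**
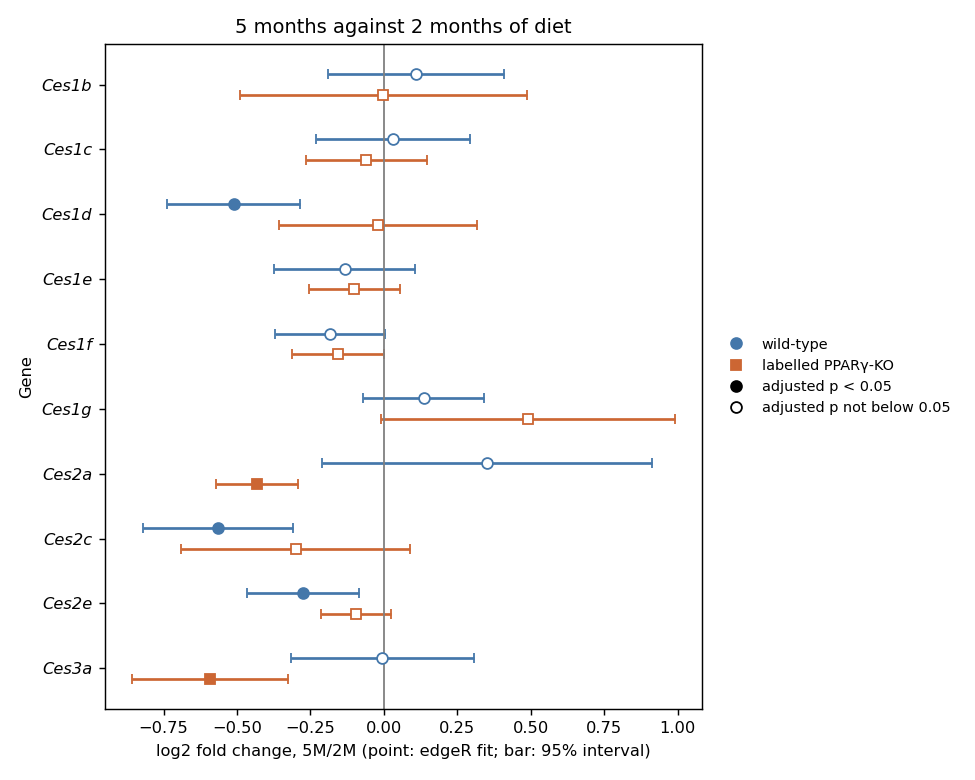
Log2 fold change of each gene from 2M to 5M of FFD in wild-type (blue circles) and labelled PPARγ-KO libraries (orange squares), with 95% intervals from edgeR. Filled symbols passed an adjusted p under 0.05. Ces1d, Ces2c and Ces2e are filled in wild-type, and Ces2a and Ces3a in labelled PPARγ-KO livers.

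Whether the knockout difference itself changed between 2M and 5M was tested as an interaction over all 12 libraries. None of the 10 members passed edgeR's adjusted test, where 1.57% of all 15127 genes did. At an unadjusted p under 0.05 there were 3 of 10, where 14.9% of all genes reached it: Ces1d (0.49, SE 0.175), Ces2a (-0.78, SE 0.258) and Ces3a (-0.58, SE 0.198), with edgeR adjusted p of 0.185, 0.182 and 0.169. DESeq2 called 1, Ces2a (adjusted p = 0.0318), with 1.77% of all genes higher and 2.08% lower. Without wild-type 2M replicate 1, edgeR called Ces2a (-1.07, adjusted p = 0.000264) and Ces3a (-0.76, adjusted p = 0.0129), with 1.77% and 1.88% of all genes. With no filter on low counts, edgeR called Ces1d (adjusted p = 0.000902) and Ces3a (adjusted p = 0.00156), with 1.24% and 1.52%. Whether these differences between times passed thus depended on the fit.

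Within groups, a few pairs of members varied together, but most did not. After the mean of each group was subtracted, Ces1b and Ces1c had a Pearson r of 0.89 over the 12 libraries, and Ces2a and Ces3a 0.84. The lowest value was -0.58, between Ces2a and Ces2e. The median over the 18 pairs within a subfamily was 0.10 and over the 27 pairs across subfamilies 0.036, and over all 45 pairs it was 0.085. These values are descriptions, since all genes of a library share its depth, scaling and cell makeup, and the Ces1b and Ces1c counts can share reads.

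**Figure D5:**
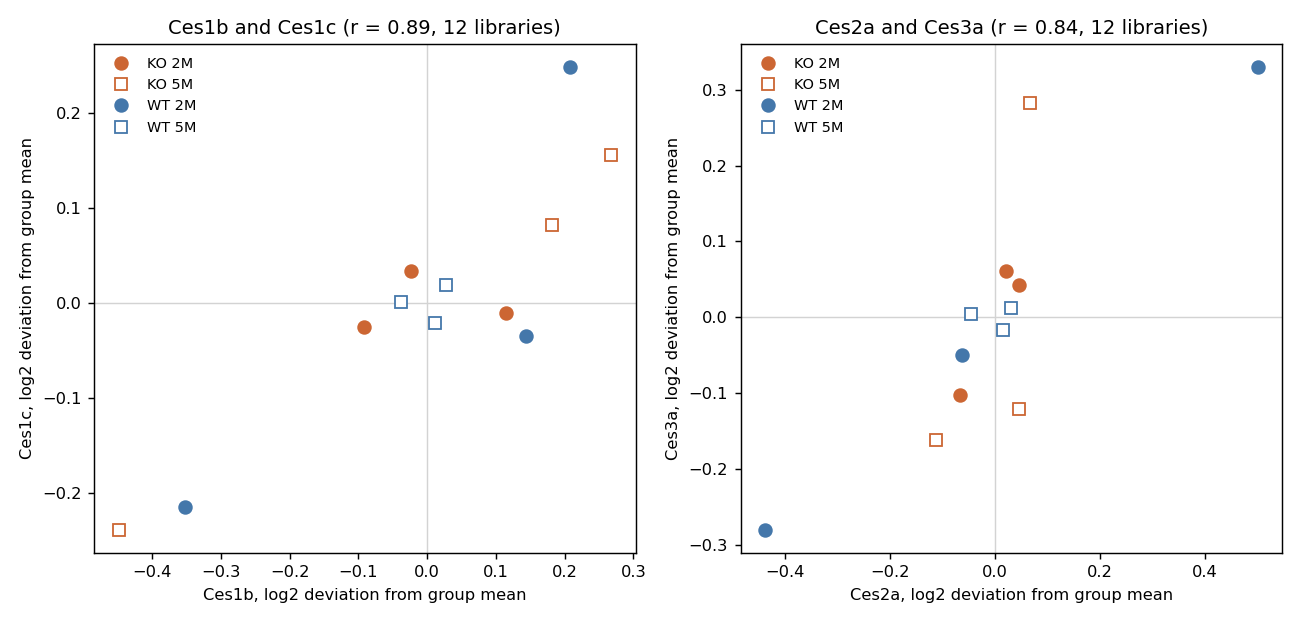
Deviation of each library from its group mean, in log2 normalized CPM, for Ces1b and Ces1c (left) and for Ces2a and Ces3a (right). Filled circles are 2M and open squares 5M, blue is wild-type and orange labelled PPARγ-KO. The points far from 0 include wild-type 2M replicates 1 and 2 and labelled PPARγ-KO 5M replicate 1 in both panels.

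By the same measure, each member was compared with 8286 genes outside the family. The most alike were Hamp for Ces1b (r = 0.94), Mug2 for Ces1c (0.95), Tmem97 for Ces1d (0.95), Sucla2 for Ces1e (0.99) and Cpn1 for Ces1f (0.97). For the rest they were Rnd2 for Ces1g (0.91), Naa35 for Ces2a (0.97), Zdhhc5 for Ces2c (0.91), Plekhb2 for Ces2e (0.96) and Cyp4a12b for Ces3a (0.96). Each is the highest of 8286 values and was not tested.

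The 10 carboxylesterase genes outside the list were mostly near 0. Ces5a had no count in any library, and 3 counts in the 231246392 of the 12 libraries together, the limit a count of 0 allows for counting error only, come to 0.0130 CPM. Ces1a, Ces1h, Ces2b, Ces2d-ps, Ces2f, Ces2h and Ces4a had 0 to 35 counts in a library. Ces2g, Ces2h and Ces3b could be tested, and none passed in either knockout comparison. Ces3b, 95.3% identical to Ces3a in coding sequence, was at 138 ± 69.5 normalized CPM in wild-type and 227 ± 64.5 in labelled PPARγ-KO livers at 2M, and at 92.7 ± 17.3 and 101 ± 5.17 at 5M. It was lower at 5M than at 2M in labelled PPARγ-KO livers (-1.17, SE 0.233, adjusted p = 0.0136), as was Ces3a. Ces2g stayed between 58.2 ± 1.47 and 67.6 ± 4.29 normalized CPM over the 4 groups.

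Of 20 other lipid ester hydrolases and esterases, all tested, 4 passed as lower and 0 as higher at 2M, and 3 as lower and 2 as higher at 5M. Lower at both times were the monoacylglycerol lipase Abhd6 (-0.69 at 2M, -0.45 at 5M), the cholesteryl ester hydrolase Nceh1 (-0.57 and -0.31) and lipoprotein lipase Lpl (-0.66 and -1.34). Pnpla2, the lipase that opens triacylglycerol breakdown in lipid droplets, was lower at 2M (-0.62, SE 0.0925, adjusted p = 0.00963), with -0.18 at 5M (adjusted p = 0.114). Pnpla3 was higher at 5M (1.07, SE 0.313, adjusted p = 0.0488). The ER esterase Aadac had 0.10 and -0.091 and hepatic lipase Lipc 0.43 (adjusted p = 0.0654) and 0.037, none passing.

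Of 10 nuclear receptors and other factors known to act on carboxylesterase genes, 0 passed at 2M and 4 at 5M, 3 higher and 1 lower. Hnf4a, the hepatocyte identity factor, had 0.31 at 2M (adjusted p = 0.105) and was higher at 5M (0.28, SE 0.0705, adjusted p = 0.0151). Nr1i3, the xenobiotic receptor CAR, was higher at 5M (0.62, SE 0.120, adjusted p = 0.00302), and fell with time in wild-type (-1.59) and labelled PPARγ-KO livers (-0.97). The xenobiotic receptor PXR gene Nr1i2 had -0.10 and 0.11 and the bile acid receptor gene Nr1h4 -0.10 and 0.19 at 2M and 5M, none passing.

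Of 10 genes of VLDL assembly and ER retention, 0 passed at 2M and 2, Mttp and Tm6sf2, were higher at 5M. Gusb, which encodes the β-glucuronidase that egasyn (Ces1e) binds, had -0.20 at 2M and 0.021 at 5M between genotypes and did not pass. It rose over time in wild-type (0.30, adjusted p = 0.0257) and in labelled PPARγ-KO livers (0.50, adjusted p = 0.000259), while Ces1e had -0.13 and -0.10 and did not pass.

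Markers of other cell types also moved between genotypes. At 5M, 9 of 10 macrophage, 6 of 10 stellate cell, 4 of 9 endothelial, 1 of 7 T, B and NK cell and 1 of 4 neutrophil markers passed as lower, with none of these lists higher. The macrophage sum was 1671 to 1954 normalized CPM in wild-type and 839 to 1075 in labelled PPARγ-KO livers at 5M, and 569 to 738 against 589 to 706 at 2M. At 2M, 1 stellate cell marker passed as lower, and the stellate cell sum was 651 to 856 against 499 to 531. Cholangiocyte markers gave 0 of 6 at 2M and 1 higher at 5M, and erythroid markers 1 of 3 higher at each time. Of 5 adipocyte markers, 1 was at 0 in all libraries, and Adipoq, Plin1 and Retn had at most 1, 2 and 2 counts in a library. Only Cfd had enough counts to be tested between genotypes, and it passed as lower at 5M. The part of these marker differences in the carboxylesterase values was not tested.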

How the data were processed

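The deposited values were raw counts per gene, 1 file per liver library, made by the authors from Illumina NovaSeq reads of total RNA (TRIzol) on mm10. The study's methods name STAR and the submitters' processing notes HISAT2 as aligner. The counting program, annotation version and strand setting are not given in the sources used here.

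Groups came from the labels (4 groups, 3 libraries each, 16367775 to 27452284 counts). Each comparison was fitted on its own 6 libraries with edgeR 4.0.16 (R 4.3.3): filterByExpr, TMM scaling, robust quasi-likelihood test, Benjamini-Hochberg over all genes tested, threshold 0.05. The interaction used all 12 libraries. Levels are CPM scaled by TMM over 12 libraries, and per kb by the length in the files. Sums, correlations (log2 of CPM plus 0.5) and sequence comparisons were descriptive. The fits were tested on simulated data.

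The 10 members were named by rule, and members and lists were chosen with earlier results of these data known. The named genes were all members, Pparg, other carboxylesterases with counts, listed genes called in both knockout comparisons, 9 further genes fixed by name, and 1 most alike gene per member. Mttp, Tm6sf2, Alb and Cfd were named after their values were seen.

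Same-numbered libraries of the 2 genotypes deviated weakly together at 2 months (r = 0.22, 0.32 and 0.14 over 5000 genes), above 0.1 in each pair, and not at 5 months (-0.078, -0.060 and -0.18). Pairs with unlike numbers ran from -0.27 to 0.11 at 2 months, so wild-type 1 with labelled PPARγ-KO 3 also exceeded 0.1. Pairing is thus not established. Alternatives were DESeq2 1.42.0 (size factors, test), no filter, scaling by library size alone, a minimum of 10 counts in each library, a replicate block, all 12 libraries in one fit, unadjusted p under 0.05 with a change of at least 1.3-fold, and each library left out.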

Additional observations from a re-analysis of the deposited data

How the results depend on the processing

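The count of members called at 2 months, 2, became 4 with DESeq2's test (3.4% of all genes higher and 3.38% lower). It was also 4 with no filter (3.08% and 2.87%) and at an unadjusted p under 0.05 with at least a 1.3-fold change. The share of all genes at that last threshold is not given here. With 1 library left out the count was 0 to 4. The share of all genes called at 2 months, 3.56%, became 10.6% when wild-type replicate 1 was left out and 0.788% when replicate 2 was. At 5 months the count of 5 ranged from 4 to 7. With a library left out, the share of all genes there was lowest without wild-type replicate 2 (5.29% higher and 5.74% lower). It was highest without wild-type replicate 1 (10.1% and 10.9%). In labelled PPARγ-KO livers over time it was 4 with library size alone (44.7% of all genes called) and with no filter (26.5%). For the interaction, 0 became 3 at an unadjusted p under 0.05, which 14.9% of all genes reached. It was 1 with DESeq2's test (1.77% of all genes higher and 2.08% lower) and 2 with no filter (1.24% and 1.52%). With 1 library left out it was 0 to 2, and the share of all genes was at most 1.77% higher and 1.88% lower, without wild-type 2M replicate 1. The causes were not tested.

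With the replicate block, 3 members were called at 2 months, 6 at 5 months, 3 in each genotype over time and 0 for the interaction. Of all genes, the block called 5.61%, 16.3%, 47.9% in wild-type and 41.6% in labelled PPARγ-KO livers over time, and 1.78% for the interaction, against 3.56%, 18.4%, 46.4%, 44.9% and 1.57% without it. Beyond Ces2c at 2 months, it added Ces1g at 5 months (0.54, adjusted p = 0.00808) and over time in labelled PPARγ-KO livers (0.47, adjusted p = 0.0117), where the numbers share no pairing, and it changed no other call.

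Library size alone moved the median of all genes by under 0.1 on the log2 scale. Under it the log2 ratio of the Ces1 sum was 0.11 at 2 months and -0.20 over time in wild-type, that of the Ces2 sum 0.029 at 5 months and -0.29 over time in labelled PPARγ-KO livers, and that of all members 0.027 at 5 months.

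Under the alternatives run, signs turned only for values that were not called. Ces1d at 5 months was -0.052 with library size alone, and Ces1c over time in wild-type -0.045. Ces3a over time in wild-type was 0.0068 with no filter and 0.017 with the replicate block. Ces1b over time in labelled PPARγ-KO livers was 0.0011 with DESeq2 size factors, 0.0018 with DESeq2's test and 0.00017 in the fit of all 12 libraries. With 1 library left out, the ranges were -0.0070 to 0.31 for Ces3a at 2 months and -0.077 to 0.083 for Ces1d at 5 months. Over time in wild-type they were -0.049 to 0.22 for Ces1b, -0.073 to 0.17 for Ces1c and -0.14 to 0.18 for Ces3a, and in labelled PPARγ-KO livers -0.14 to 0.20 for Ces1b, -0.14 to 0.057 for Ces1c and -0.12 to 0.14 for Ces1d. For the interaction they were -0.25 to 0.089 for Ces1b, -0.22 to 0.024 for Ces1c, -0.069 to 0.12 for Ces1e and -0.039 to 0.083 for Ces1f.

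With 3 libraries a group, a difference that misses the threshold is not shown to be absent. Shared sequence limits Ces1b, Ces1c, Ces2a, Ces2c and Ces3a.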
